A study of Homo sapiens with 16 samples.

Results

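The 9 genes described here encode receptor chains for haematopoietic cytokines and were followed by RNA sequencing of Molm14 cells. They were taken by name, as CSF2RA, CSF2RB, CSF3R, IL6R, EPOR, CRLF2, IL7R, IL10RA and IFNGR1, and all 9 had a row among the 22445 genes of the table and passed the filter on low values. Molm14 is an established human cell line from acute myeloid leukaemia that carries a KMT2A fusion. The cells were treated for 7 days, with medium and compound renewed on day 4, and 4 libraries were made per group. Combo cells received both compounds, 0.16 uM EPZ5676 and 0.3 uM GSK126. iDOT1L cells received 0.16 uM EPZ5676 alone, an inhibitor of the histone H3 methyltransferase DOT1L. iEZH2 cells received 0.3 uM GSK126 alone, an inhibitor of EZH2, the catalytic subunit of the Polycomb repressive complex PRC2. DMSO cells received the solvent and are the reference for the 3 treatments, so the comparisons with DMSO share these 4 control libraries. All groups come from this 1 cell line.

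Cytokine receptors of this kind have no kinase of their own. A bound cytokine brings receptor chains together, JAK kinases held on their cytoplasmic tails phosphorylate them and each other, and STAT transcription factors are then recruited, activated and moved to the nucleus. SOCS proteins and CISH, which STATs induce, act back on the receptors and JAKs as inhibitors. Type I receptors, which include those for GM-CSF, G-CSF, interleukin-6, erythropoietin, TSLP and interleukin-7, share an extracellular WSXWS motif, and type II receptors bind interferons and the interleukin-10 family. In myeloid cells these receptors govern survival, proliferation and maturation along the granulocyte and monocyte lineages.

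Levels are normalised counts, that is reads per gene scaled between libraries. They are not divided by transcript length and were compared within a gene. Fold changes are differences of group means on the scale of log2(normalised count + 1), with their standard error (SE), and a gene was called when its adjusted p from limma with Benjamini-Hochberg correction over 22331 genes was under 0.05. Against DMSO, IL7R, CSF2RB and IL6R rose with Combo and with iDOT1L, and CRLF2 fell in all 3 treatments. EPOR fell with Combo and with iEZH2, and IFNGR1 rose with iDOT1L. With Combo 3 members rose and 2 fell, where 7.22% of all genes tested rose and 8.80% fell. With iDOT1L 4 members rose and 1 fell, where 3.08% of all genes rose and 3.17% fell. With iEZH2 none rose and 2 fell, where 1.30% of all genes rose and 2.05% fell. The count for iEZH2 was 1 in the fits that left out iEZH2 replicate 2 or 4 or DMSO replicate 1, 3 or 4, and it was 4 in a fit that took replicates sharing a number as pairs, where 9.76% of all genes were called. The members' median log2 change was 0.11 with Combo, 0.36 with iDOT1L and -0.30 with iEZH2, beside 0.03, 0.01 and 0.02 over all genes tested. In a bulk sample, fewer cells of a type and less RNA per cell cannot be told apart.

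**Figure D1:**
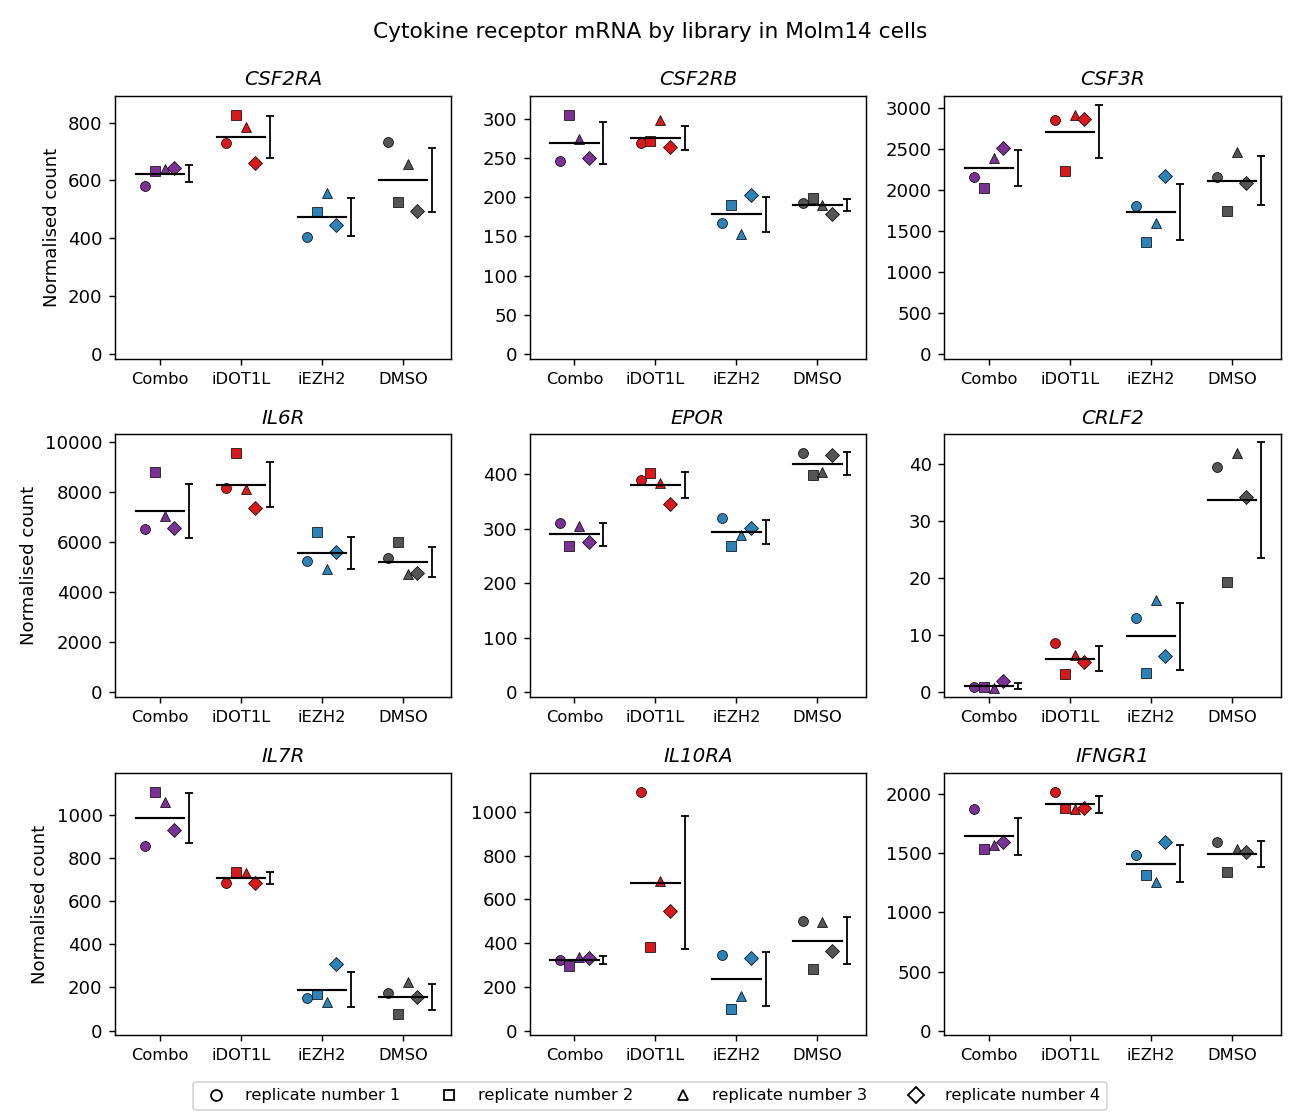
Normalised counts of the 9 receptor genes in each library, with points for the 4 replicates of Combo, iDOT1L, iEZH2 and DMSO a line for the group mean and a bar for 1 SD on either side. IL7R is high in all Combo and iDOT1L libraries, and CRLF2 lies at or under 1.99 in all 4 Combo libraries against 19.2 or more in each DMSO library.

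IL7R (ENSG00000168685, chr5:35852695-35879603 in GRCh38) encodes the alpha chain of the interleukin-7 receptor. With the common gamma chain it binds interleukin-7, and with the CRLF2 product it binds TSLP. Its normalised counts were 855, 1107, 1058 and 929 with Combo, 685, 736, 729 and 682 with iDOT1L, 149, 170, 133 and 308 with iEZH2, and 173, 77.7, 225 and 154 with DMSO. Every Combo library lay above every iDOT1L library and every iDOT1L library above every iEZH2 and DMSO library, whereas iEZH2 and DMSO overlapped. Against DMSO the level was 6.65-fold higher with Combo (log2 2.73 ± 0.26 SE, adjusted p = 2.18e-06, limma) and 4.79-fold higher with iDOT1L (log2 2.26 ± 0.26, adjusted p = 4.28e-05). The iEZH2 difference from DMSO, log2 0.29 ± 0.26, was not called (adjusted p = 0.667, limma). Although their libraries did not overlap, Combo and iDOT1L differed by log2 0.47 ± 0.26 with an adjusted p of 0.39 (limma over 16 libraries), and 0.0331 in a fit of these 2 groups alone.

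The 250 bases before the RefSeq start of IL7R (chr5:35856641-35856890, plus strand, GRCh38.p14) are shown because IL7R had the largest rise of the 9 genes. Capitals mark the letters searched on both strands for myeloid and lymphoid regulators, namely GAGGAA for the factor PU.1, TGTGGT for the RUNX family, AGATAA for the GATA family and the TATA box letters TATAAA. The last occur once on each strand, and no match overlaps another.
IL7R: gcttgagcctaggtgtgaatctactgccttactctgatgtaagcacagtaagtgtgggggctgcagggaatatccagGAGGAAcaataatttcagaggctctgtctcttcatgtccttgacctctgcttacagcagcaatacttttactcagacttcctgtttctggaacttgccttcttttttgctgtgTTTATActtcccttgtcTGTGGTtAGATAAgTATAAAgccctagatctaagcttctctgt
The window holds no CpG and 43.6% G and C, beside a median of 11 CpG and 58% over 35114 RefSeq promoters of this length. GAGGAA occurs in 23.6% of these promoters, TGTGGT in 10.98%, AGATAA in 9.17% and TATAAA in 10.7%. A STAT-type TTCNNNGAA, found in 6.57%, is not among its letters. These matches describe the sequence and were not tied to binding in these cells.

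CRLF2 (ENSG00000205755, chrX:1187549-1212750, in the pseudoautosomal region) encodes the TSLP-binding chain that pairs with the IL7R product. It had few reads in every group, with 0.984, 0.885, 0.773 and 1.99 normalised counts with Combo, 8.56, 3.18, 6.46 and 5.38 with iDOT1L, 13.1, 3.39, 16.2 and 6.40 with iEZH2, and 39.4, 19.2, 41.8 and 34.3 with DMSO. No treated library reached the lowest DMSO library, and the Combo libraries lay under all others, close to no reads at all. Because the pseudocount shrinks changes at this level, the summed counts were also compared. The 4 Combo libraries held 4.63 normalised counts together and the 4 DMSO libraries 135. Taken as whole counts, 5 against 135, the Combo sum was 27-fold lower, with a 95% exact binomial interval of 11.3 to 84.5 that covers counting error only. On the same footing it was 5.63-fold lower with iDOT1L (24 counts, interval 3.62 to 9.08) and 3.46-fold lower with iEZH2 (39 counts, interval 2.41 to 5.08). On the log2(normalised count + 1) scale the change against DMSO was -3.98 ± 0.43 with Combo (adjusted p = 4.05e-06, limma), -2.34 ± 0.43 with iDOT1L (adjusted p = 0.00215) and -1.82 ± 0.43 with iEZH2 (adjusted p = 0.0234). The iEZH2 call was lost in 5 of 8 fits that left out 1 library (iEZH2 replicate 2 or 4, DMSO replicate 1, 3 or 4), with adjusted p from 0.0690 to 0.0858.

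CRLF2 was also lower in Combo cells than in cells given either compound alone. The difference was log2 -2.16 ± 0.43 from iEZH2 (adjusted p = 0.00595, limma) and -1.65 ± 0.43 from iDOT1L (adjusted p = 0.0491). The call against iDOT1L was lost in 7 of 8 fits that left out 1 library, all but that without iDOT1L replicate 2, with adjusted p from 0.0683 to 0.168. On the deposited log2 scale, which compresses low counts further, the same difference was -0.22 (adjusted p = 0.178). The 2 chains of the TSLP receptor had opposite signs in Combo and iDOT1L cells, IL7R up and CRLF2 down. Their ligand gene TSLP stayed low, with 14.4 ± 4.52 normalised counts in Combo, 11.96 ± 2.99 in iDOT1L, 8.80 ± 2.85 in iEZH2 and 7.23 ± 4.44 in DMSO (SD, n = 4 each), and passed the test in no comparison with DMSO over all libraries, though with Combo it did without DMSO replicate 1. IL2RG, the common gamma chain with which the IL7R product binds interleukin-7, was at 118 ± 11.8 in Combo, 121 ± 34.9 in iDOT1L, 81.4 ± 15.9 in iEZH2 and 99.2 ± 13.1 in DMSO (SD, n = 4 each) and was not called either.

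Because IL7R is best known from lymphoid cells, B lymphoid markers were read beside it. All 4 of the markers listed had a row, and their summed normalised count was 526 to 847 in Combo libraries, 685 to 891 in iDOT1L, 741 to 1350 in iEZH2 and 1002 to 1423 in DMSO. PAX5 made up most of this sum in every library, so the sum mainly follows that gene. Its mean was 551 in Combo, 672 in iDOT1L and 1100 in DMSO. Against DMSO 1 of the 4 rose and 1 fell with Combo, and likewise with iDOT1L. CD79A, part of the B cell receptor complex, was the one that rose, and PAX5, a B lineage transcription factor, the one that fell. The CD79A call was lost without Combo replicate 1 or 3 (adjusted p up to 0.0547, limma) and, for iDOT1L, without iDOT1L replicate 3 (0.0522). The PAX5 call held in each such fit for Combo, but for iDOT1L it was lost in 6 of 8 (iDOT1L replicate 2, 3 or 4, DMSO replicate 1, 2 or 4; adjusted p up to 0.12). Of 4 T lymphoid markers 2 had a row, and none was called against DMSO. They summed to 7.49 to 27.9 in Combo, 9.36 to 34.3 in iDOT1L, 2.37 to 13.4 in iEZH2 and 6.91 to 14.4 in DMSO libraries. The part of these lymphoid markers in the IL7R result was not tested. The 9 markers of the myeloid line summed to 38372 to 47642 in Combo, 36522 to 40295 in iDOT1L, 27909 to 30565 in iEZH2 and 31023 to 33113 in DMSO libraries, so myeloid markers were expressed in every group. That sum was higher in each Combo and iDOT1L library than in each iEZH2 and DMSO library, but the markers did not move one way. With Combo and with iDOT1L 2 of the 9 rose, LYZ and MPO, and 3 fell, FLT3, CD68 and MEIS1, and with iEZH2 FLT3 fell (3 fell with pairs). LYZ, a lysozyme of monocytes and granulocytes, rose by log2 2.65 with Combo (adjusted p = 7.9e-07, limma) and 1.85 with iDOT1L (adjusted p = 6.79e-05), and FLT3, a receptor kinase of progenitors, was at -1.41 with Combo (adjusted p = 1.23e-06), -0.61 with iDOT1L (adjusted p = 0.0105) and -0.82 with iEZH2 (adjusted p = 0.00232). The CD68 call with iDOT1L was lost in 6 of 8 fits that left out 1 library (iDOT1L replicate 2, 3 or 4, DMSO replicate 1, 3 or 4; adjusted p up to 0.134). CD68 also shares 77.3% of the 31-base words in its transcripts with another gene, AC016876.2, which limits how its reads can be assigned. The part of these markers in the receptor results was not tested.

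CSF2RB and CSF2RA encode the chains of the GM-CSF receptor. CSF2RB (ENSG00000100368, chr22:36913628-36940449) is the signalling beta chain, shared with the interleukin-3 and interleukin-5 receptors. It had 246, 304, 274 and 249 normalised counts with Combo, 269, 271, 298 and 264 with iDOT1L, 167, 190.5, 153 and 202 with iEZH2, and 192, 199, 190 and 179 with DMSO. Every Combo and iDOT1L library was above every iEZH2 and DMSO library. The level was 1.41-fold higher with Combo than with DMSO (log2 0.49 ± 0.12, adjusted p = 0.00624, limma) and 1.45-fold higher with iDOT1L (log2 0.53 ± 0.12, adjusted p = 0.00808), and both calls held in each fit that left out 1 library. Combo and iDOT1L differed by -0.04 in log2, with a 95% interval of -0.28 to 0.21, and the iEZH2 difference from DMSO was -0.10 ± 0.12 (adjusted p = 0.749, limma).

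CSF2RA (ENSG00000198223, chrX:1268800-1310381, also pseudoautosomal) is the chain that binds GM-CSF itself. Its normalised counts were 579, 633, 640 and 641 with Combo, 731, 825, 786 and 660 with iDOT1L, 403, 490, 558 and 445 with iEZH2, and 731, 525, 657 and 494 with DMSO. The DMSO libraries spread widely and overlapped all 3 treatments, and no comparison with DMSO was called. The fold changes against DMSO were log2 0.07 ± 0.13 with Combo (adjusted p = 0.782, limma), 0.33 ± 0.13 with iDOT1L (adjusted p = 0.148) and -0.34 ± 0.13 with iEZH2 (adjusted p = 0.177). The single treatments did separate from each other, with CSF2RA higher in iDOT1L than in iEZH2 cells by log2 0.67 ± 0.13 (adjusted p = 0.0023). The difference between the 2 chains in their response was not tested. IL3RA, the alpha chain of the interleukin-3 receptor that also uses CSF2RB, fell to 873 ± 125 normalised counts with Combo, against 1651 ± 229 with DMSO (SD, n = 4 each; log2 -0.92 ± 0.14, adjusted p = 0.000162, limma).

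CSF3R (ENSG00000119535, chr1:36466043-36483278) encodes the G-CSF receptor, which signals as a homodimer and drives neutrophil production. Its normalised counts were 2156, 2022, 2385 and 2510 with Combo, 2847, 2227, 2911 and 2863 with iDOT1L, 1804, 1362, 1592 and 2167 with iEZH2, and 2158, 1743, 2465 and 2083 with DMSO. Groups overlapped in each comparison with DMSO, and replicate 2 was the lowest library in all 4 groups. Without a pairing none of these differences was called, at log2 0.11 with Combo (adjusted p = 0.646, limma), 0.36 ± 0.13 with iDOT1L (adjusted p = 0.129) and -0.30 ± 0.13 with iEZH2 (adjusted p = 0.281). Where replicates sharing a number were taken as pairs, CSF3R rose with iDOT1L (adjusted p = 0.00763) and fell with iEZH2 (adjusted p = 0.0319). Between the single treatments CSF3R was higher in iDOT1L than in iEZH2 cells by log2 0.66 ± 0.13 without the pairing as well (adjusted p = 0.00384).

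IL6R (ENSG00000160712, chr1:154405193-154469450), the interleukin-6 binding chain signals through gp130. Its normalised counts were 6517, 8786, 7028 and 6570 with Combo, 8141, 9522, 8096 and 7364 with iDOT1L, 5237, 6406, 4933 and 5602 with iEZH2, and 5339, 5985, 4722 and 4750 with DMSO. Combo and iDOT1L libraries all lay above every iEZH2 and DMSO library, and replicate 2 was the highest in all 4 groups, the reverse of CSF3R. The level was 1.39-fold higher with Combo than with DMSO (log2 0.47 ± 0.11, adjusted p = 0.00633, limma) and 1.59-fold higher with iDOT1L (log2 0.67 ± 0.11, adjusted p = 0.000795). With iEZH2 the difference was 0.09 ± 0.11, with a 95% interval of -0.14 to 0.33. IL6R overlaps the pseudogene PSMD8P1 on the opposite strand, and whether counting used strand was not stated. IL6ST, which encodes gp130, went the other way with Combo, at log2 -0.71 against DMSO (adjusted p = 0.0345, limma), a call that was lost in 4 of 8 fits leaving out 1 library (Combo replicate 4, DMSO replicate 1, 2 or 4), with an adjusted p of up to 0.124.

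EPOR (ENSG00000187266, chr19:11377205-11384342), the homodimeric erythropoietin receptor of erythroid precursors, was lower in both groups that received GSK126. It had 310.0, 268, 304 and 275 normalised counts with Combo, 388, 402, 384 and 345 with iDOT1L, 319, 268, 287 and 302 with iEZH2, and 437, 398, 403 and 435 with DMSO. Combo and iEZH2 libraries interleaved and all lay under every iDOT1L and DMSO library. Against DMSO the level was 0.691 times as high with Combo (log2 -0.53 ± 0.10, adjusted p = 0.00078, limma) and 0.703 times as high with iEZH2 (log2 -0.51 ± 0.10, adjusted p = 0.00598). The iDOT1L difference was -0.14 ± 0.10 (95% interval -0.34 to 0.06), and Combo and iEZH2 differed by -0.02 ± 0.10 (adjusted p = 0.943, limma).

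The direct comparisons of EPOR with iDOT1L were nearer the threshold. EPOR was lower in Combo than in iDOT1L cells by log2 -0.39 ± 0.10 (adjusted p = 0.0372, limma), a call lost in 6 of 8 fits that left out 1 library (Combo replicate 2, 3 or 4, iDOT1L replicate 1, 2 or 3; adjusted p 0.0709 to 0.112). It was higher in iDOT1L than in iEZH2 cells by 0.37 ± 0.10 (adjusted p = 0.0257, limma), a call lost in 5 of 8 (iDOT1L replicate 1, 2 or 3, iEZH2 replicate 2 or 3; adjusted p 0.0666 to 0.0908). Of 6 erythroid markers 4 had a row, and their summed normalised count was 4.18 to 13.1 in Combo, 5.55 to 11.5 in iDOT1L, 2.39 to 12.9 in iEZH2 and 1.71 to 21.4 in DMSO libraries, near the floor in every group. The globin genes HBA1 and HBB were not analysed here. The spans of EPOR and RGL3 overlap on the same strand, but of the 3250 31-base words in EPOR transcripts 0 occur in transcripts of other genes.

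The 250 bases before the RefSeq start of EPOR (chr19:11384315-11384564, minus strand, GRCh38.p14) are shown because EPOR is a known GATA target in erythroid cells and was the member that fell with iEZH2 at a level well above the floor. Capitals mark TTATCT, the reverse complement of the GATA letters AGATAA.
EPOR: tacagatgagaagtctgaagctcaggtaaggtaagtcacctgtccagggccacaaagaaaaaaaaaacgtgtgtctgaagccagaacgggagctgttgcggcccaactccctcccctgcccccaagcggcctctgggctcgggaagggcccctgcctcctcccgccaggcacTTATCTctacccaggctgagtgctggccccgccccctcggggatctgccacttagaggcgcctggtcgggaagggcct
Unlike that of IL7R, this window holds 10 CpG, near the median of 11, with 62% G and C. It has none of the PU.1, RUNX, STAT or TATA letters. The GATA letters occur in 9.17% of RefSeq promoters of this length, and the match was not tied to binding in these cells. GATA1, 1 of the erythroid markers read above, reached at most 2.49 normalised counts in any library. The part of GATA factors in the EPOR result was not tested. Among the other members with a RefSeq promoter the CpG count was 22 for IL6R, 4 for CSF2RA, 2 for IL10RA, 3 and 8 for the 2 starts of CSF3R, and 24 and 19 for the 2 starts of IFNGR1. The genes that rose with iDOT1L therefore included windows with no CpG (IL7R) and with many (IL6R, IFNGR1).

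IL10RA and IFNGR1 are the type II chains of the group. IL10RA (ENSG00000110324, chr11:117986348-118003037) binds interleukin-10, a cytokine that restrains monocyte activation. Its normalised counts were 325, 294, 334 and 332 with Combo, 1091, 383, 683 and 548 with iDOT1L, 347, 100.1, 160 and 334 with iEZH2, and 503, 281, 496 and 363 with DMSO. The spread was far wider in the single treatments and DMSO than in Combo, and replicate 2 was the lowest library in all 4 groups. No comparison with DMSO was called without a pairing, at log2 -0.32 with Combo (adjusted p = 0.629, limma), 0.65 ± 0.37 with iDOT1L (adjusted p = 0.388) and -0.94 ± 0.37 with iEZH2 (adjusted p = 0.209). With same-numbered replicates as pairs IL10RA fell with iEZH2 (adjusted p = 0.0341). It was higher in iDOT1L than in iEZH2 cells by 1.59 ± 0.37 (adjusted p = 0.0145, limma), or 0.0574 without iEZH2 replicate 3.

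IFNGR1 (ENSG00000027697, chr6:137197484-137219449) is the chain that binds interferon gamma. It had 1872, 1540, 1569 and 1593 normalised counts with Combo, 2021, 1884, 1874 and 1882 with iDOT1L, 1482, 1317, 1256 and 1594 with iEZH2, and 1596, 1341, 1536 and 1510 with DMSO. All iDOT1L libraries were above every library of the other 3 groups, by a narrow margin over the highest Combo library. IFNGR1 rose with iDOT1L by log2 0.36 ± 0.09 against DMSO (adjusted p = 0.0214, limma). That call was lost without iDOT1L replicate 1 or 3 or DMSO replicate 2 or 4 (adjusted p 0.0501 to 0.0749). With Combo the change was 0.13 (adjusted p = 0.363, limma) and with iEZH2 it was -0.09 (adjusted p = 0.717). IFNGR2, the partner chain that carries JAK2, fell to 459 ± 79.9 normalised counts with Combo, against 675 ± 65.5 with DMSO (SD, n = 4 each; log2 -0.57 ± 0.14, adjusted p = 0.00646, limma).

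The widest contrast among the 9 genes was between the single compounds. Of the 9 members 8 were higher in iDOT1L than in iEZH2 cells and none was lower, where 3.88% of all genes were higher and 3.06% lower. The member outside was CRLF2, at log2 -0.51 (adjusted p = 0.59, limma). IL7R had the largest difference, 1.97 ± 0.26 (adjusted p = 0.000172), followed by IL10RA. The other called members were CSF2RA, CSF3R, CSF2RB (0.63 ± 0.12, adjusted p = 0.00193), IL6R (0.58 ± 0.11, adjusted p = 0.00272), IFNGR1 (0.45 ± 0.09, adjusted p = 0.00426) and EPOR. The members' median was 0.63, beside 0.00 over all genes tested, and the count was 6 to 8 in fits that left out 1 library. CSF2RA, CSF3R and IL10RA had estimates of opposite sign in the single treatments, none of them called against DMSO without the pairing. CSF2RB (log2 0.53 with iDOT1L and -0.10 with iEZH2) and IFNGR1 (0.36 and -0.09) also had opposite signs, and only their rises with iDOT1L were called.

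**Figure D2:**
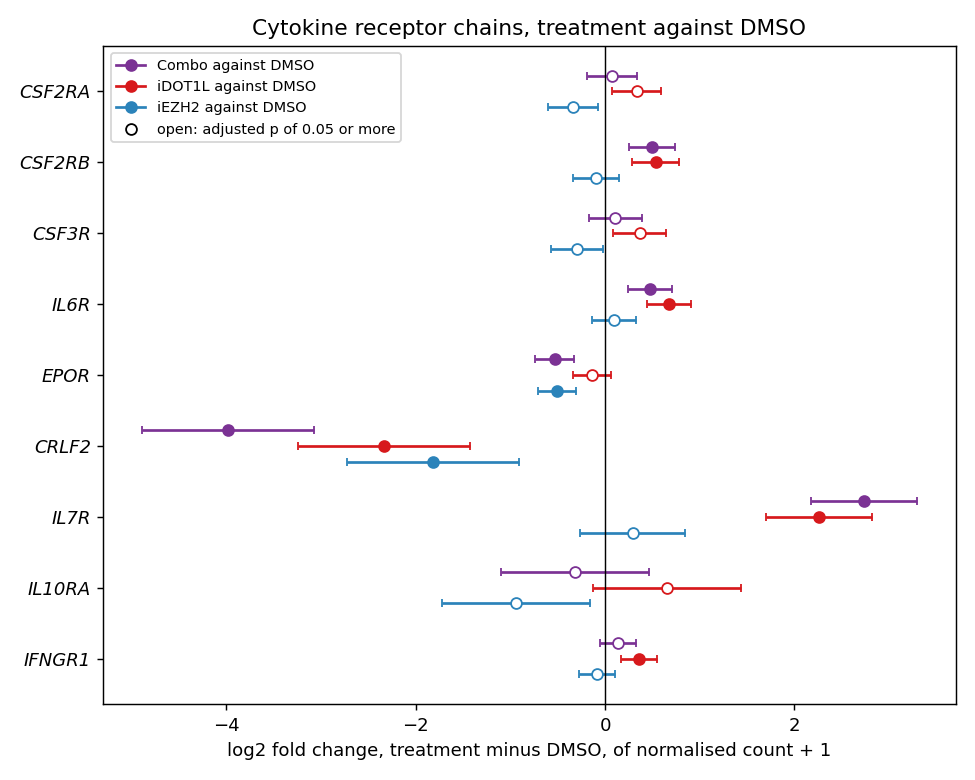
Log2 fold changes of the 9 receptor genes against DMSO for Combo, iDOT1L and iEZH2, with bars for the 95% interval from limma, and filled points for calls at an adjusted p under 0.05. IL7R lies far to the right in Combo and iDOT1L, CRLF2 far to the left in all 3 treatments, and the points of the other members lie between -1 and 1.

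Combo cells were also set against each single compound. Compared with iEZH2, Combo cells had higher IL7R (log2 2.44 ± 0.26, adjusted p = 4.38e-05, limma) and CSF2RB (0.59 ± 0.12, adjusted p = 0.00505) and lower CRLF2, 2 rises and 1 fall where 2.08% of all genes rose and 1.72% fell. IL6R was also higher in every Combo library than in every iEZH2 library, but its difference of 0.38 ± 0.11 had an adjusted p of 0.0691, or 0.0390 without iEZH2 replicate 2. CSF3R was at 0.41 ± 0.13 (adjusted p = 0.108, limma), or 0.0196 without iEZH2 replicate 4. Compared with iDOT1L, no member rose and 2 fell, CRLF2 and EPOR, where 1.11% of all genes rose and 1.48% fell, and the count was 0 or 1 whenever 1 library was left out.

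Combo was also set beside the sum of the changes for the 2 single treatments. For IL7R the Combo change against DMSO was 2.73 and the sum 2.55, for CRLF2 -3.98 and -4.16, for EPOR -0.53 and -0.65, and for CSF2RB 0.49 and 0.43. IL6R departed most of the 9, at 0.47 with Combo beside a sum of 0.77, and its interaction of -0.29 ± 0.16 had an unadjusted p of 0.0783 (limma over 16 libraries). The interaction was called for 0 of the 9 members, and 0 of 9 had an unadjusted p under 0.05 in limma, with none called in the other fits either. Over all genes 0.00% were called for the interaction. Failing the test does not show that the effects add.

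**Figure D3:**
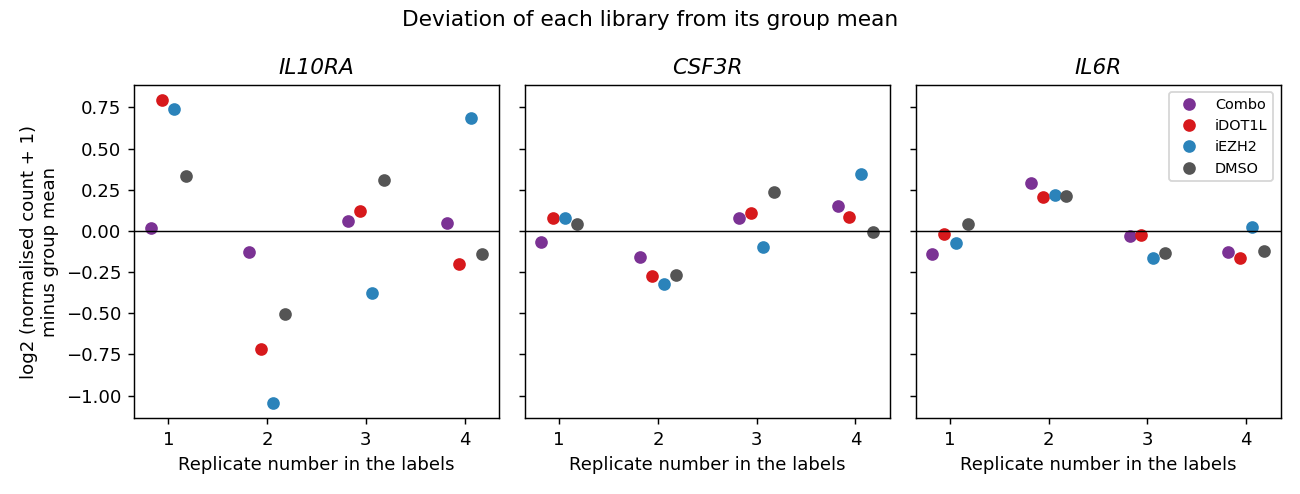
Deviation of each library from its group mean, in log2(normalised count + 1), for IL10RA, CSF3R and IL6R by replicate number, with 1 point for each of Combo, iDOT1L, iEZH2 and DMSO. Replicate 2 is lowest in all 4 groups for CSF3R and IL10RA and highest in all 4 for IL6R.

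Libraries that carry the same replicate number moved together in several of these genes. Besides CSF3R, IL10RA and IL6R, replicate 2 was the lowest library in 3 of the 4 groups for CRLF2 and EPOR, and replicate 1 was the highest in 3 groups for EPOR, IL10RA and IFNGR1. No label explains the number. Taken within numbers, the IL7R difference between iDOT1L and DMSO ranged from 1.69 to 3.23 in log2 and was positive for all 4.

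The other genes of the pathway mostly fell where they changed. Receptor chains, ligands, JAKs, STATs, inhibitors and STAT target genes other than the 9 members made up 93 listed genes, of which 86 were tested. With Combo 4 rose and 26 fell, with iDOT1L 3 rose and 10 fell, and with iEZH2 none rose and 10 fell, to be read beside the shares of all genes given above for the same comparisons. Their median log2 change was -0.12 with Combo, 0.01 with iDOT1L and -0.12 with iEZH2. With same-numbered replicates as pairs, 24 were called with iDOT1L and 16 with iEZH2, where 12.2% and 9.76% of all genes were called. Leaving out 1 library gave 4 to 14 calls for iEZH2, with 6 or fewer without iEZH2 replicate 3 or 4 or DMSO replicate 1, 3 or 4.

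Among receptor chains that pair with the members, 1 of 6 tested rose and 4 fell with Combo, 1 rose with iDOT1L and 1 fell with iEZH2, or 1 rose and 2 fell with iDOT1L and 3 fell with iEZH2 in the fit with pairs. IL5RA, the interleukin-5 binding chain that uses CSF2RB, was the gene that rose, at 9.17 ± 3.47 normalised counts in Combo and 9.67 ± 2.03 in iDOT1L, against 2.84 ± 2.05 in DMSO (SD, n = 4 each), with adjusted p of 0.0339 and 0.0455 (limma). Its level was as high in iEZH2, at 9.84 ± 4.82 (SD, n = 4), where it was not called. Leaving out 1 library ended the Combo call in 4 of 8 fits (Combo replicate 1 or 3, DMSO replicate 1 or 3; adjusted p up to 0.108) and the iDOT1L call in 6 of 8 (any iDOT1L replicate, DMSO replicate 1 or 3; up to 0.139). With iEZH2 the gene that fell was IL3RA, at log2 -0.59 (adjusted p = 0.0249, limma), a call lost in 6 of 8 such fits (iEZH2 replicate 2, 3 or 4, DMSO replicate 1, 3 or 4; up to 0.0895), and the count of partner chains called ran from 0 to 4, reaching 4 without iEZH2 replicate 1. For Combo this count was 3 without DMSO replicate 1. With pairs IL3RA and IL6ST also fell with iDOT1L (adjusted p = 0.00101 and 0.0212) and IFNGR2 with iEZH2 (adjusted p = 0.0134). Of 22 other type I chains tested, 2 rose and 5 fell with Combo, 1 rose and 2 fell with iDOT1L, and 1 fell with iEZH2. With 1 library left out the Combo count of 7 became 3 to 6, 3 without Combo replicate 3 and 4 without Combo replicate 4. The gene that fell with iEZH2, the interleukin-4 receptor chain IL4R (log2 -0.44, adjusted p = 0.0299, limma), lost its call in 7 of 8 such fits, all but that without iEZH2 replicate 1 (adjusted p up to 0.108). IL13RA1, a chain of the interleukin-13 receptor, rose to 1445 ± 272 normalised counts with iDOT1L, against 858 ± 112 with DMSO (SD, n = 4 each; log2 0.74 ± 0.14, adjusted p = 0.00202, limma). IL31RA, a gp130-related chain for interleukin-31, fell to 23.1 ± 5.93 with iDOT1L, against 80.5 ± 9.40 with DMSO (SD, n = 4 each; log2 -1.79 ± 0.28, adjusted p = 0.000493, limma), with a change of -2.15 for Combo (adjusted p = 2.69e-05). Of 7 other type II chains, 1 rose and 2 fell with Combo, 1 rose with iDOT1L and 1 fell with iEZH2. IL22RA2, listed with these chains though it encodes a soluble interleukin-22 binding protein, was the one that rose with iDOT1L (adjusted p = 0.018, limma), a call lost in 5 of 8 fits that left out 1 library (iDOT1L replicate 2 or 3, DMSO replicate 1, 2 or 3, with adjusted p up to 0.058). It had few reads, at 6.04 ± 1.51 normalised counts in iDOT1L and 0.741 ± 1.48 in DMSO (SD, n = 4 each). IFNAR2, which shares many of its bases with other genes, was the one that fell with iEZH2 (adjusted p = 0.044), lost in 6 of 8 (iEZH2 replicate 2, 3 or 4, DMSO replicate 1, 3 or 4; up to 0.143). IFNAR1, a chain of the type I interferon receptor, was at log2 -0.51 with Combo (adjusted p = 0.0102, limma). None of the 5 ligand genes tested and none of the 4 JAKs was called against DMSO in any treatment by limma. At an unadjusted p under 0.05 there was 1 ligand with Combo, TSLP, and no JAK, and TYK2 rose with iDOT1L in the fit with pairs (adjusted p = 0.0127).

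Of 7 STAT genes 3 fell with Combo and none was called with iDOT1L or iEZH2, although 2 with iDOT1L and 1 with iEZH2 had an unadjusted p under 0.05 (limma). In the fit with pairs STAT2 rose and STAT6 fell with iDOT1L (adjusted p = 0.0408 and 0.00668), and STAT6 fell with iEZH2 (adjusted p = 0.00227). Without DMSO replicate 2 or iEZH2 replicate 1, STAT6 was called with iEZH2 without pairs as well. STAT6, which interleukin-4 and interleukin-13 activate, fell to 4902 ± 316 normalised counts with Combo, against 7163 ± 648 with DMSO (SD, n = 4 each; log2 -0.54 ± 0.10, adjusted p = 0.000639, limma). STAT5A, a main effector of GM-CSF, interleukin-3 and erythropoietin, was at log2 -0.34 (adjusted p = 0.0129, limma). Its paralog STAT5B was at -0.41 (adjusted p = 0.015, limma), or 0.0644 without DMSO replicate 1.

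Of 19 inhibitors of this signalling 7 fell with Combo, 3 with iDOT1L and 3 with iEZH2, and none rose. With pairs 2 rose and 5 fell with iDOT1L and 6 fell with iEZH2. SOCS2, which STAT5 induces, fell to 2103 ± 266 normalised counts with Combo and 2283 ± 205 with iDOT1L, against 5025 ± 158 with DMSO (SD, n = 4 each), or log2 -1.26 (adjusted p = 1.23e-06, limma) and -1.14 ± 0.12 (adjusted p = 1.29e-05). CISH, also induced by STAT5, fell with Combo (622 ± 40.7 normalised counts) and iEZH2 (621 ± 29.3), against 974 ± 91.9 with DMSO (SD, n = 4 each), or log2 -0.64 (adjusted p = 0.000224, limma) and -0.65 ± 0.10 (adjusted p = 0.00154). With iDOT1L CISH was at -0.25 (adjusted p = 0.188, limma), or 0.0342 with pairs. SH2B3, an adaptor that dampens JAK2 signalling, fell with all 3 treatments, with a log2 change of -0.90 for Combo (adjusted p = 2.29e-05, limma), -0.53 for iDOT1L (adjusted p = 0.00789) and -0.57 for iEZH2 (adjusted p = 0.00887). SOCS3, an inhibitor of gp130 and G-CSF receptor signalling, was at 59.0 ± 17.0 with Combo, against 124 ± 19.8 with DMSO (SD, n = 4 each; log2 -1.09 ± 0.21, adjusted p = 0.00126, limma), and with pairs it also fell with iEZH2 (adjusted p = 0.029). Between the single compounds, SOCS2 was lower in iDOT1L than in iEZH2 cells by log2 -1.05 (adjusted p = 2.97e-05, limma) and CISH higher by 0.39 (adjusted p = 0.0243), the CISH call being lost without iDOT1L replicate 1 or iEZH2 replicate 2 or 3 (adjusted p up to 0.0892).

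Of 20 STAT target genes, among them SOCS2, SOCS3 and CISH, 8 fell with Combo, 6 with iDOT1L and 5 with iEZH2, and none rose. With pairs 1 rose, BCL6, and 8 fell with iDOT1L, and 7 fell with iEZH2. The iEZH2 count was 3 without DMSO replicate 3 or 4. PIM2, a survival kinase, was at log2 -0.75 with Combo (adjusted p = 0.00163, limma) and -0.70 with iEZH2 (adjusted p = 0.0115), and with pairs it also fell with iDOT1L (adjusted p = 0.00364). IRF1, an interferon-induced transcription factor, was at -0.67 with Combo (adjusted p = 0.000472, limma) and -0.68 with iDOT1L (adjusted p = 0.00106). Of 9 myeloid transcription factors listed beside the pathway, 3 rose and 1 fell with Combo, 3 rose with iDOT1L and 1 fell with iEZH2. The factor that fell, with Combo and with iEZH2, was IRF8. Its normalised counts were 8073 ± 993 in Combo, 10978 ± 622 in iDOT1L, 9451 ± 683 in iEZH2 and 12432 ± 278 in DMSO (SD, n = 4 each). With pairs 1 rose and 3 fell with iEZH2, CEBPE upward (adjusted p = 0.0269) and SPI1 and RUNX1 among the falls (adjusted p = 0.00907 and 0.0145), and without pairs the iEZH2 count was 2 without DMSO replicate 3. CEBPE, a factor of late granulocyte maturation, rose by log2 2.93 with Combo (adjusted p = 0.000836, limma) and 2.69 with iDOT1L (adjusted p = 0.00423), and CEBPD rose by 0.90 with Combo (adjusted p = 4.28e-06) and by 0.90 with iDOT1L (adjusted p = 1.51e-05). CEBPE had few reads in every group. Its mean normalised count was 14.7 in Combo, 12.9 in iDOT1L, 6.42 in iEZH2 and 1.62 in DMSO. KLF4, also on this list, had a mean of 303 in Combo and 301 in iDOT1L, against 175 in DMSO.

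**Figure D4:**
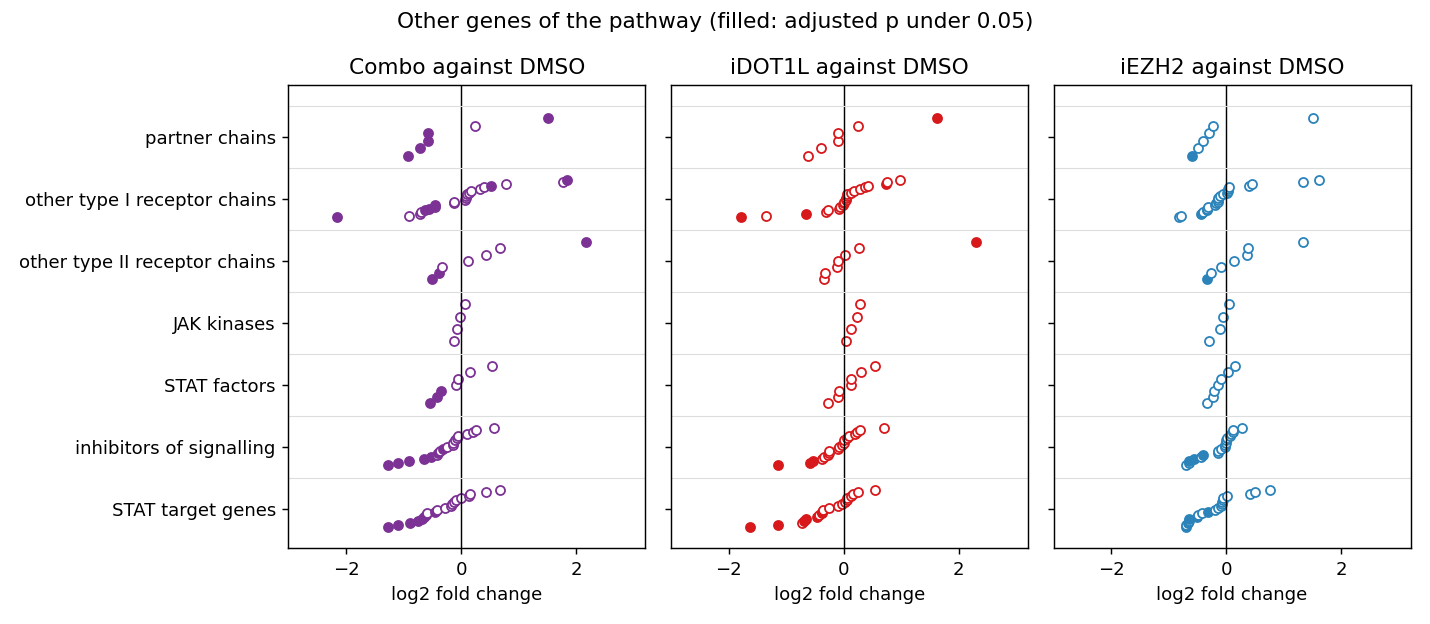
Log2 fold changes against DMSO of the other pathway genes, 1 point a gene in rows by list, for Combo, iDOT1L and iEZH2, with filled points for an adjusted p under 0.05. In this fit without pairs no filled point of the inhibitors and STAT target genes lies above 0, and no JAK is filled.

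For each member called against DMSO, the protein-coding genes with the most similar pattern were taken by Pearson's r over the 16 libraries. These libraries share the treatment groups, so genes that respond alike correlate, and the values are a description without a test. Among 11881 genes with a mean of at least 30 normalised counts, IL7R was closest to CLEC12A (r = 0.981), a myeloid inhibitory lectin receptor, then JUN (0.965) and ADAMTS2 (0.961). CRLF2 was closest to ADGRE5 (0.968), FERMT3 (0.966) and BCL2A1 (0.964), the last a BCL2-family survival gene. CSF2RB lay nearest IRS2 (0.964), an insulin receptor substrate, MYCBP2 (0.957) and CSGALNACT2 (0.956). IL6R lay nearest CBX6 (0.956), a Polycomb chromobox gene, MAN2B1 (0.955) and ITGA4 (0.953). EPOR was nearest ECH1 (0.947), GNA15 (0.939) and TIFAB (0.927), and IFNGR1 nearest LPAR4 (0.965), C19orf38 (0.95) and PTAFR (0.940).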

How the data were processed

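Per the labels, RNA came from Molm14 cells after 7 days of treatment (one protocol instead names a sort), and per the submitters' processing notes the authors used kallisto, DESeq2 and hg38, without versions. The authors deposited variance-stabilised log2 values of 22445 genes with a common lowest value of 6.28 (a count of 0). This transformation was inverted to normalised counts, which were tested with limma on a log scale. The plan kept a count test for the case of raw counts. Low values lay on read-like steps (63.1% to 65.9% within 0.1 of whole), from which 20.6 to 27.2 M reads per library were estimated. No pair of libraries held an identical value above 0 (r 0.967 to 0.981 over 120 pairs). Symbols and positions came from GENCODE v29 (20784 IDs matched, 1661 not) and promoters from RefSeq, with 7 of the 9 members matched.

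The 22331 genes whose normalised count passed 1 in 4 or more libraries were fitted with limma-trend 3.58.1 (R 4.3.3; robust, 4 group means, 12 residual degrees of freedom) on log2(normalised count + 1). Adjusted p-values are Benjamini-Hochberg within each comparison over all genes tested. The fit was tested on simulated counts without shared replicate deviations. Changes were planted only in well-expressed genes and were larger than those of most members. The simulation therefore does not cover small changes or genes near the floor. Labels do not say whether replicates were separate cultures, so the spread behind the p-values may be technical.

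Same-numbered replicates deviated together (over 13216 genes with a mean of at least 30) in iDOT1L and iEZH2 (r 0.104 to 0.576), iDOT1L and DMSO (0.124 to 0.432) and iEZH2 and DMSO (0.163 to 0.489). Over all genes tested the lowest of these r were 0.026, 0.018 and 0.031. Between libraries of different numbers r reached 0.276, 0.218 and 0.231 over the 13216 genes, above the lowest same-number r of each comparison. So not every number stood out from mismatched libraries. In comparisons with Combo not every same-number r passed 0.1. A second fit, the one with pairs, held a term for the replicate number over all 16 libraries, Combo among them. Its p-values for the comparisons without Combo therefore also rest on the Combo libraries.

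The members, the lists and the rule for genes to name (all members, pathway genes that passed the test, and the 3 genes most correlated with each member called against DMSO) were chosen with earlier results of these data known. Of 31-base words in their transcripts CSF2RA shares 9.88%, CRLF2 5.20% and the other members at most 2.08% with other genes. IL6R overlaps the antisense pseudogene PSMD8P1, and strand was not stated.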

Additional observations from a re-analysis of the deposited data

Results flagged for a closer look

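Among 36 sets of 4 libraries (9 genes in 4 groups), 4 held a library that stood apart from the other 3 by Dixon's criterion, where chance flags about 1 set in 20. CSF2RA was lowest in Combo replicate 1, at 579 normalised counts beside 633 to 641 in the other 3. CSF3R was lowest in iDOT1L replicate 2, at 2227 beside 2847 to 2911. IFNGR1 was highest in replicate 1 of Combo, at 1872 beside 1540 to 1593, and of iDOT1L, at 2021 beside 1874 to 1884.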

How the results depend on the processing

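For the 9 members, 63 fold changes were recomputed under 1197 alternatives in all (other scalings, pseudocounts, filters, fits, and each library left out). The call, or the lack of one, was kept in 1144, a call was lost in 39 and gained in 14, and no called direction turned. Some differences that were not called changed sign. IL7R with iEZH2 against DMSO, for instance, was at log2 0.29 over all libraries and as low as -0.014 with 1 library left out. The number of members called with iEZH2 against DMSO was 2, became 4 with the replicate block and 1 in a fit of the compared groups alone, and was 1 to 2 with 1 library left out. For Combo against iDOT1L it was 2, became 5 with the replicate block, 0 with upper quartile scaling, and 1 each on the deposited log2 values, with a pseudocount of 5, without trend or robust moderation and in a fit of the compared groups alone, and was 0 to 1 with 1 library left out. For Combo against iEZH2 it was 3, became 6 with the replicate block and 5 with upper quartile scaling, and was 3 to 4 with 1 library left out. In Combo comparisons the numbers share only a label by the check used, so these block values do not rest on a shown pairing, and the block called 10.03% and 9.57% of all genes in them. The count against DMSO stayed at 5 for Combo with each library left out and was 4 to 5 for iDOT1L.

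At about 1 read per library, the CRLF2 level in Combo cells is set by counting error, and 4 libraries per group limit what changes of the size seen for CSF2RA or CSF3R can be called. The cause of the lost and gained calls was not tested.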
